A study of Homo sapiens with 12 samples.

Results

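A set of 10 chaperone and heat shock factor genes, chosen by name, was followed across 2 cell lines: the small heat shock proteins CRYAB, HSPB1 and HSPB8, their partner BAG3, the heat shock factors HSF1 and HSF2, the cytosolic HSP90 genes HSP90AA1 and HSP90AB1, the HSP110 chaperone HSPH1 and the mitochondrial HSP60 gene HSPD1. All 10 were found by symbol in both count tables, which held 42342 features for one cell line and 44938 for the other, 38997 of them shared. RNA came from MP38 and 92.1, established human uveal melanoma cell lines. Cells of each line spent 72 h with VE-822 (berzosertib), which inhibits the replication stress kinase ATR, or with its solvent DMSO alone. There were 3 libraries in each of the 4 groups, 12 in all. The VE-822 dose, whose value is not given in the sources used here, was tuned per line to a viability near 40%, so dose and line cannot be told apart. Whether the replicates are separate cultures is not given in the sources used here, so the p-values reflect the spread among these libraries alone, and that spread may be technical.

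Small heat shock proteins bind unfolding proteins without using ATP and hold them in a soluble state until other chaperones take over. BAG3 links HSPB8 to HSP70 and steers damaged proteins to autophagy. HSP90 completes the folding of kinases and hormone receptors together with cochaperones, HSPH1 drives the ATPase cycle of HSP70 as a nucleotide exchange factor, and HSPD1 forms the folding chamber of the mitochondrial matrix with its lid HSPE1. HSF1 is the main activator of heat-induced transcription and binds heat shock elements, inverted repeats of the unit GAA, and HSF2 can join it in mixed trimers. Many signalling kinases of melanoma cells depend on HSP90.

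HSF1 binds heat shock elements, so letter matches to that element in the promoters of the 10 genes are shown first. Whether HSF1 or HSF2 acts on these genes here was not tested. RefSeq promoter windows (GRCh38.p14) were at hand for 8 of the 10 genes, 13 windows in all, and not for CRYAB and HSF1. The 250 bases before each start were searched on both strands for 3 units in a row (GAANNTTCNNGAA or TTCNNGAANNTTC) and for 2 units (GAANNTTC or TTCNNGAA), where every 3-unit match also contains 2-unit matches. A 3-unit match was found for HSP90AA1, HSP90AB1 and HSPD1, against 151 of the 34395 windows searched (0.439%), or 0.553% of genes with any window. A 2-unit match was found for those 3 genes and for HSPB1 and HSPB8, against 11.6% of those windows and 14.0% of genes. No match was found in these windows for BAG3, HSF2 and HSPH1. Only exact units at this spacing were searched, so an element with imperfect units or outside the 250 bases would be missed. In the lines below, which run 5′ to 3′ on the gene's strand, capitals mark the matches: 1 of 3 units in HSP90AA1, 2 separate ones of 3 units in HSP90AB1, 2 overlapping ones of 3 units in HSPD1, and 1 of 2 units in HSPB1 and in HSPB8. They lie at chr14:102087111-102087140 (minus strand) for HSP90AA1, chr6:44247738-44247865 (plus) for HSP90AB1, chr2:197500061-197500090 (minus) for HSPD1, chr7:76302451-76302538 (plus) for HSPB1 and chr12:119178832-119178861 (plus) for HSPB8. The stretches shown for HSP90AA1, HSPD1 and HSPB8 fall within an annotated exon of some transcript in GENCODE 29, and those for HSP90AB1 and HSPB1 do not. A match is a description of letters and not evidence of binding.
HSP90AA1: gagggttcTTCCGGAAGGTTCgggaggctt
HSP90AB1: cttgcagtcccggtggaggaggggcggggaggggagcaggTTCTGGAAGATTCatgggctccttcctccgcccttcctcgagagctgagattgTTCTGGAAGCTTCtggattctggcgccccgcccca
HSPD1: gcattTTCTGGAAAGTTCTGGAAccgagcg
HSPB1: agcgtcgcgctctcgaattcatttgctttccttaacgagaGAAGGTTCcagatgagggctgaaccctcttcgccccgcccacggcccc
HSPB8: tcatcacctccGAATATTCctgtgacagga

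Total counts were 54415628 to 63638976 per library in MP38 and 112374503 to 137664800 in 92.1, so line and depth cannot be told apart. All 9 melanocyte lineage markers reached at least 1 CPM (read counts scaled by library size, with TMM factors computed within a line) in every group, with a summed level of 4580 to 5710 CPM in MP38 and 19400 to 20500 CPM in 92.1. Of the retinal pigment epithelium markers, 2 of 3 (BEST1 and RLBP1) were also present, while RPE65 stayed at or below 0.158 CPM in MP38, and the summed fibroblast, endothelial, leukocyte and epithelial lists each stayed at or below 5.93 CPM in every library. One library stood apart. In pairs of 92.1 DMSO libraries that included number 3, the chi-square per gene was 93.0 and 93.6, against 2.39 to 8.32 in all other pairs of replicates, and this library held 253 CPM of the cystine transporter SLC7A11 against 13.03 and 12.9 in the other two. It also had the lowest DMSO level of 9 of the 10 chaperone genes in that line, all except HSPB8. Results in 92.1 are therefore also given without it for the 10 genes, for counts over gene lists, and for related genes whose call it changes.

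In MP38 the small heat shock proteins rose with VE-822, while HSP90AB1, HSPH1 and HSPD1 fell. Of the 10 genes, 5 were called higher and 3 lower by edgeR's quasi-likelihood test (adjusted p under 0.05 after Benjamini-Hochberg adjustment over all genes tested). In that line 52.3% of all 21415 genes tested were called, 26.9% higher and 25.4% lower, and 69.8% of those with at least 5 CPM, a level that all 10 genes reached. The median log2 fold change of the 10 genes was 0.0915, against -0.0116 over all genes tested. In 92.1 CRYAB was the 1 gene called higher, 5 were called lower (HSF2, HSPH1, HSP90AA1, HSP90AB1 and HSPD1), 3 did not pass, and HSPB8 was not tested because its counts were too low. With all libraries 39.9% of 22943 genes were called in 92.1, 20.3% higher and 19.6% lower. The median of the 9 tested genes was -0.28 against 0.031 over all genes, most of which are not matched to them in level. Keeping only genes of at least 5 CPM, which also changes the scaling, moved log2 values in 92.1 upwards by a median of 0.0917. Scaling by library size alone moved them by 0.0696. On leaving out DMSO library 3 of 92.1, 2 of the 10 were called higher (CRYAB and HSPB8) and 7 lower, all but HSPB1. In that fit 55.7% of all genes were called, and HSPB8 passed the filter only through VE-822, which fixed its call. The share of the 10 genes that passed in MP38 was thus close to that of genes of at least 5 CPM, and the share in 92.1 (6 of 9) was somewhat above the 50.4% of such genes called there. The VE-822 and DMSO libraries did not overlap for 8 of 10 genes in MP38, where this held for 58.7% of all genes, and for 6 of 9 in 92.1, where it held for 52.9%. In bulk RNA, fewer cells of a kind and less RNA per cell cannot be told apart.

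**Figure D1:**
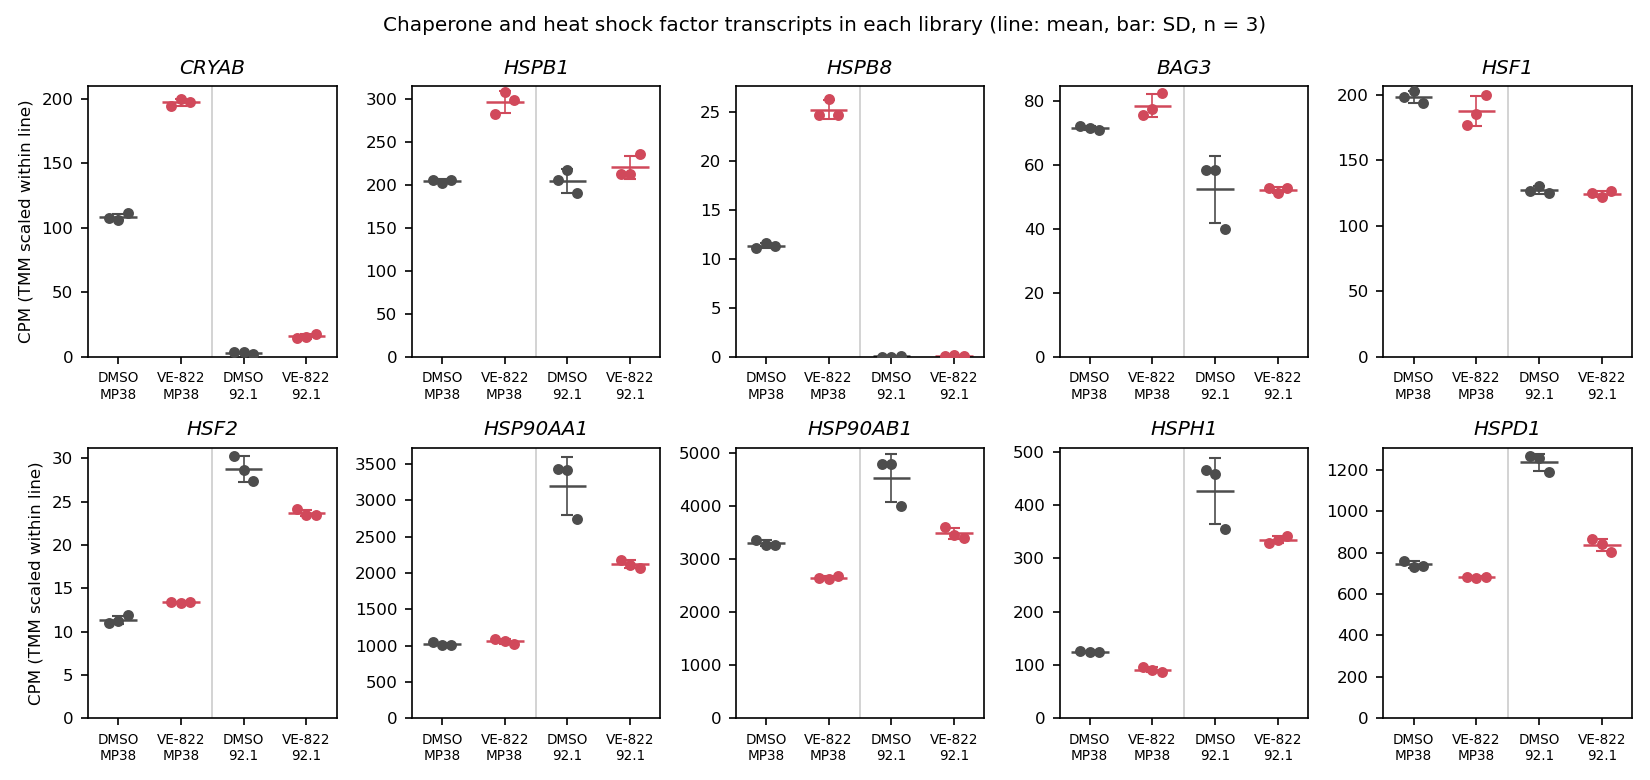
CPM of the 10 chaperone genes (vertical axes, each starting at 0) in every library by line and treatment, with the mean and SD of 3 libraries. CRYAB lay between 195 and 200.1 CPM in VE-822-treated MP38 against 106 to 111 CPM in DMSO, while HSP90AA1, HSP90AB1, HSPH1 and HSPD1 in 92.1 lay lower in VE-822 than in any DMSO library.

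CRYAB, the αB-crystallin chaperone known from the eye lens and from stressed cells, rose in both lines. Its feature spans chr11:111908564-111923722 in the deposited tables (GRCh38.p13). In MP38 it measured 108, 106 and 111 CPM in the DMSO libraries and 195, 200.1 and 198 CPM in VE-822, a 1.82-fold rise (log2 0.86 ± 0.0365 SE, adjusted p = 8.225e-14). Its level in 92.1 was far lower, at 3.43, 3.88 and 2.42 CPM in DMSO and 14.8, 14.99 and 17.9 CPM in VE-822. That was a 4.89-fold rise (log2 2.29 ± 0.163 SE, adjusted p = 1.437e-05), with no overlap between the groups in either line. Without DMSO library 3, the lowest, the log2 rise in 92.1 was 2.08. The response was larger in 92.1 by 1.45 ± 0.154 on the log2 scale (adjusted p = 1.619e-06 for the difference in a joint fit of all 12 libraries), although treated 92.1 cells still held 3.71 ± 0.463 FPKM (SD, n = 3) against 25.0 ± 0.521 FPKM in untreated MP38. The deposited FPKM divide counts by feature length and library size. In MP38 the fold change of CRYAB stood at the 93.9th percentile of all genes tested, and in 92.1 at the 98.3rd. The interval of the CRYAB feature also contains HSPB2, another small heat shock protein gene, and part of C11orf52, but HSPB2 drew only 11 to 20 counts per MP38 library and C11orf52 only 8 to 20, against at least 6603 for CRYAB.

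HSPB1 (chr7:76302673-76304295), the widely expressed HSP27, rose in MP38 from 206, 202 and 206 CPM to 282, 308 and 299 CPM, 1.45-fold (log2 0.53 ± 0.0391 SE, adjusted p = 4.18e-10). In 92.1 it measured 206, 217 and 190.2 CPM in DMSO and 212, 213 and 236.5 CPM in VE-822. These groups overlapped, and the log2 difference of 0.11 ± 0.0659 did not pass (adjusted p = 0.2301), though it passed when only genes of at least 5 CPM were kept, which also changes the scaling (log2 0.20, adjusted p = 0.0456). Without DMSO library 3 the value was 0.0266. The response to VE-822 was smaller in 92.1 than in MP38, by 0.40 on the log2 scale (-0.40 ± 0.0813, adjusted p = 0.0009567).

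HSPB8 (chr12:119171555-119224855), the small heat shock protein that works in a complex with BAG3, rose 2.23-fold in MP38 (log2 1.16 ± 0.0540 SE, adjusted p = 4.059e-13), the largest fold change of the 10 genes in that line. Its DMSO libraries held 11.1, 11.6 and 11.3 CPM and its VE-822 libraries 24.75, 26.4 and 24.7 CPM. In 92.1 it was near the floor of detection, with 3, 0 and 10 counts in the DMSO libraries and 16, 24 and 5 in VE-822, in libraries of at least 112374503 counts. The count of 0 allows up to 3 counts. These groups overlapped only through DMSO library 3, with 10 counts against the lowest VE-822 count of 5, and no fold is given. Without that library HSPB8 passed the filter on low counts through VE-822 alone. That fixed its call as higher, and no p-value is given. BAG3 itself (chr10:119651380-119677819), the cochaperone that hands HSPB8 clients to autophagy, changed little. In MP38 it rose from 72.0, 71.4 and 70.9 CPM to 75.5, 77.4 and 82.45 CPM, 1.098-fold (log2 0.13 ± 0.0398 SE, adjusted p = 0.007612). In 92.1 it measured 58.35, 58.4 and 40.1 CPM in DMSO and 52.8, 51.1 and 52.65 CPM in VE-822. Library 3 again was the low one, and the 2 groups overlapped only through it. With all libraries the log2 difference was -0.002 ± 0.129 (adjusted p = 0.9916), with values on both sides of 0 across scalings, and without DMSO library 3 it was -0.19 (adjusted p = 6.15e-05). The difference between the lines' responses in BAG3 likewise moved from -0.11 (adjusted p = 0.5826) to -0.31 (adjusted p = 2.22e-05) without that library.

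HSF1, the master regulator of the heat shock response, did not change past the threshold in either line. It measured 198, 203 and 193.5 CPM in MP38 DMSO and 177, 185.5 and 199.8 CPM in VE-822, with overlapping groups (log2 -0.08 ± 0.0424, adjusted p = 0.1273). This call was gained with library size as the only scaling (-0.12, adjusted p = 0.0117), with the 5 CPM filter (-0.096, adjusted p = 0.0486) and without VE-822 library 3 (-0.12, adjusted p = 0.005063). In 92.1 the levels were 127, 130.4 and 125 CPM against 125, 122 and 127 CPM (log2 -0.03 ± 0.0436, adjusted p = 0.6002), a value that lay above 0 with library size as the only scaling and among genes of at least 5 CPM, and at -0.078 (adjusted p = 0.04138) without DMSO library 3. HSF1 acts mainly through its protein's trimerization and modification, which RNA does not show. The gene's last bases overlap DGAT1, and whether counting used strand is not given in the sources used here.

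HSF2 (chr6:122399551-122433119) moved in opposite directions in the 2 lines. In MP38 its 11.02, 11.2 and 11.9 CPM in DMSO rose to 13.4, 13.3 and 13.5 CPM (1.18-fold, log2 0.23 ± 0.0602 SE, adjusted p = 0.002715). In 92.1 its 30.3, 28.7 and 27.35 CPM fell to 24.1, 23.5 and 23.5 CPM (log2 -0.28 ± 0.0585 SE, adjusted p = 0.005351). Neither pair of groups overlapped, and the responses differed by -0.48 ± 0.0807 on the log2 scale (adjusted p = 0.0001621). Without DMSO library 3 the fall in 92.1 was -0.35. Of 4 tested relatives of the factors, HSBP1, whose product binds HSF1 trimers, rose in MP38 (log2 0.38) and was lower in 92.1 (log2 -0.18, adjusted p = 0.01853; -0.25 without DMSO library 3). The HSBP1 call in 92.1 was lost with library size as the only scaling (adjusted p = 0.1011), with the 5 CPM filter (0.08842), in limma on log2(FPKM + 1) and log2(FPKM + 0.1) (0.1585 and 0.162), and without DMSO library 2 (0.06458), VE-822 library 2 (0.08949) or VE-822 library 3 (0.06292). HSF4, a factor best known from the lens, was higher in 92.1 (log2 0.26) and did not pass in MP38 (log2 0.04). HSBP1L1 changed most of these relatives in MP38, from 6.42 ± 0.357 to 14.3 ± 0.324 CPM (SD, n = 3). That was a log2 change of 1.16 (edgeR adjusted p = 1.312e-11), while in 92.1 it did not pass (log2 0.05). Without DMSO library 3, HSBP1 was called lower in 92.1 and the other 3 relatives higher, where 55.7% of all genes were called.

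**Figure D2:**
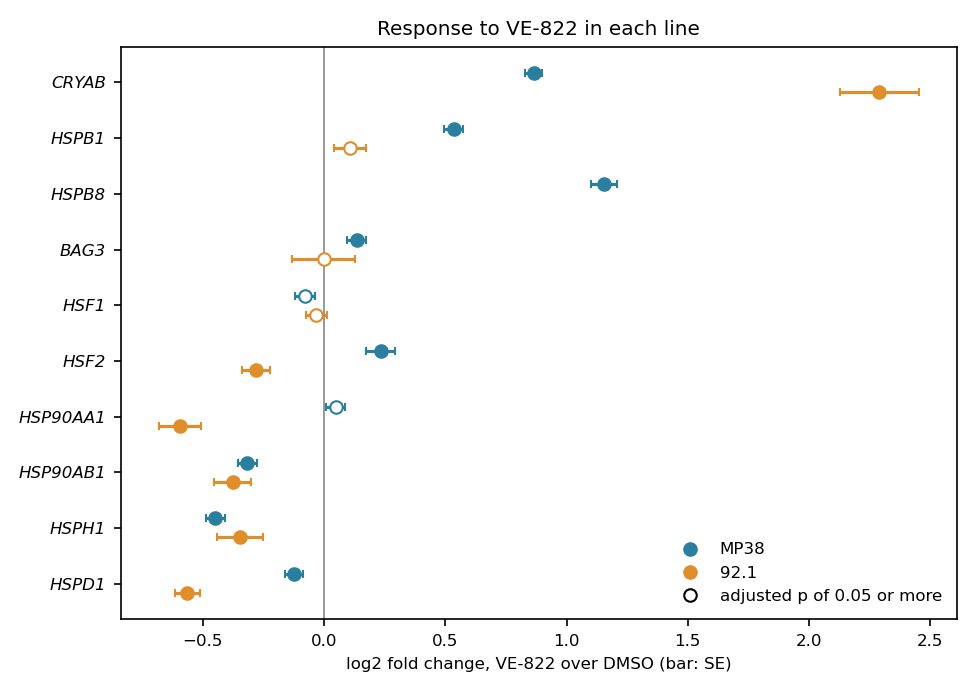
Log2 fold change with SE (horizontal axis) of each chaperone gene in MP38 and in 92.1, where open circles did not pass the threshold and HSPB8 has no value in 92.1. HSF2 lies at 0.23 in MP38 and -0.28 in 92.1, and HSP90AA1 at 0.05 and -0.59.

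The cytosolic HSP90 genes were the most abundant of the 10, and HSP90AA1 (chr14:102080742-102139699), the more stress-responsive of the pair, differed between the lines in its response. In MP38 HSP90AA1 measured 1043, 1013 and 1012 CPM in DMSO and 1085, 1066 and 1022 CPM in VE-822. The groups overlapped (log2 0.05 ± 0.0394, adjusted p = 0.3217), and without VE-822 library 3 the adjusted p was 0.0499. In 92.1 it fell from 3435, 3420 and 2739 CPM to 2176, 2111 and 2066 CPM. That was a log2 change of -0.59 ± 0.0872 SE (adjusted p = 0.0008641), or -0.73 without DMSO library 3. The responses differed by -0.61 ± 0.0967 (adjusted p = 9.466e-05). HSP90AB1 (chr6:44246166-44253888), the steadily expressed form, fell in both lines. In MP38 it went from 3367, 3274 and 3259 CPM to 2638, 2627 and 2688 CPM (log2 -0.32 ± 0.0397 SE, adjusted p = 1.043e-06). In 92.1 it went from 4785, 4795 and 3997 CPM to 3609, 3445 and 3400 CPM (log2 -0.38 ± 0.0770 SE, adjusted p = 0.004839), a call lost in limma on log2(FPKM + 1) (adjusted p = 0.0876) and on log2(FPKM + 0.1) (adjusted p = 0.0975). The value was -0.49 without DMSO library 3 (adjusted p = 3.101e-10). The difference between these responses, -0.03 ± 0.0822, did not pass (adjusted p = 0.7813) and was above 0 with library size as the only scaling, while without DMSO library 3 it was -0.16 (adjusted p = 0.01105).

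Because HSP90AB1 fell in both lines and HSP90AA1 in 92.1, the share between the pair was taken per library, as the ratio of HSP90AA1 to HSP90AB1 FPKM. In MP38 the ratio was 0.181, 0.181 and 0.181 in DMSO and 0.240, 0.237 and 0.222 in VE-822. In 92.1 it was 0.420, 0.417 and 0.4005 in DMSO and 0.3525, 0.358 and 0.355 in VE-822. The mean ratio thus moved up in MP38, from 0.181 ± 0.000303 to 0.233 ± 0.00977 (SD, n = 3, exact permutation p = 0.1), and down in 92.1, from 0.412 ± 0.0104 to 0.355 ± 0.00286 (SD, n = 3, exact permutation p = 0.1, two-sided). With 3 against 3 libraries 0.1 is the smallest p the test can give, so it cannot pass 0.05. The groups did not overlap in either line, and every 92.1 library lay above every MP38 library. Named pseudogenes held at most 0.133% of the HSP90AA1 count and 0.0696% of the HSP90AB1 count, and the far end of the HSP90AA1 feature overlaps the start of WDR20.

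**Figure D3:**
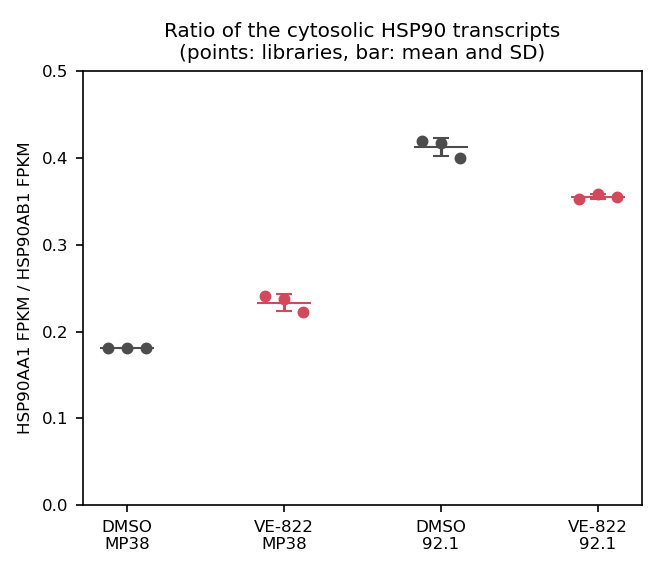
Ratio of HSP90AA1 to HSP90AB1 FPKM in each library (vertical axis from 0, points) with the mean and SD of 3 libraries per group. The ratio lay higher in VE-822 than in DMSO in MP38 (mean 0.233 against 0.181) and lower in 92.1 (0.355 against 0.412).

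HSPH1 (chr13:31134973-31162388), the HSP110 exchange factor of HSP70, fell in MP38 from 126, 125 and 124 CPM to 95.4, 91.5 and 87.4 CPM (0.733-fold, log2 -0.45 ± 0.0387 SE, adjusted p = 4.921e-09). In 92.1 its levels were 465, 458 and 356 CPM in DMSO and 329, 334 and 342 CPM in VE-822. The groups did not overlap in CPM, and the log2 change was -0.35 ± 0.0947 SE (adjusted p = 0.01836). The call was lost with library size as the only scaling (adjusted p = 0.0516), with the 5 CPM filter (adjusted p = 0.0624), in limma on log2(FPKM + 1) (adjusted p = 0.183) and log2(FPKM + 0.1) (adjusted p = 0.1736), and on leaving out any of the other 5 libraries of the line (adjusted p from 0.0527 to 0.0653). Without DMSO library 3 the value was -0.49 (adjusted p = 1.564e-10). The difference between the lines' responses, 0.13 ± 0.110, did not pass (adjusted p = 0.3755), and without that library it was -0.033.

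HSPD1 (chr2:197486584-197516737), which forms the mitochondrial folding chamber, fell in both lines and more in 92.1. In MP38 it measured 761, 732 and 737 CPM in DMSO and 684, 677 and 684 CPM in VE-822 (log2 -0.13 ± 0.0375 SE, adjusted p = 0.008157), a call lost without DMSO library 1 (adjusted p = 0.0602). In 92.1 it went from 1265, 1255 and 1190 CPM to 863.5, 843 and 804 CPM (log2 -0.56 ± 0.0512 SE, adjusted p = 6.024e-05), or -0.62 without DMSO library 3 (adjusted p = 9.122e-12). The groups stayed apart in both lines, and the difference between the responses was -0.41 ± 0.0600 (adjusted p = 4.843e-05). HSPE1, the lid of the chamber, runs in the opposite direction, and its feature (chr2:197500140-197503449) lies within that of HSPD1. Whether counting used strand is not given in the sources used here, so their reads may not be fully told apart. HSPE1 was lower in MP38, at 31.6 ± 0.812 against 28.6 ± 1.05 CPM (SD, n = 3, log2 -0.15, edgeR adjusted p = 0.01108), and in 92.1, at 52.6 ± 3.86 against 41.25 ± 1.85 CPM (SD, n = 3, log2 -0.35, edgeR adjusted p = 0.003351). HSPD1 has many pseudogenes, whose reads came to at most 0.385% of its own.

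Compared per length by FPKM, which use the deposited feature lengths, the 10 genes spanned 3.21 to 1121 in untreated MP38. In untreated 92.1 they spanned 0.0100 to 1482 FPKM. In untreated MP38 the order was HSP90AB1 (1121 FPKM), HSP90AA1 (203), HSPB1 (128), HSPD1 (98.7), HSF1 (37.8), BAG3 (26.4), CRYAB (25.0), HSPH1 (15.1), HSF2 (4.27) and HSPB8 (3.21). In untreated 92.1 it was HSP90AB1 (1482 FPKM), HSP90AA1 (612), HSPD1 (158), HSPB1 (123), HSPH1 (49.6), HSF1 (23.4), BAG3 (18.7), HSF2 (10.4), CRYAB (0.722) and HSPB8 (0.0100). No 2 neighbours in these orders overlapped in their 3 libraries. With VE-822, CRYAB at 44.4 ± 1.04 FPKM (SD, n = 3) passed HSF1 and BAG3 in MP38, and HSPB8 at 6.96 ± 0.356 passed HSF2 at 4.89 ± 0.0836. In treated 92.1 HSPB1 at 139 ± 10.97 FPKM came to stand above HSPD1 at 112 ± 2.25.

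Before treatment the lines differed in the joint fit in CRYAB, HSPB1, BAG3, HSF1, HSF2, HSPH1, HSP90AA1, HSP90AB1 and HSPD1, where 79.7% of all 24958 genes were called (38.5% higher in 92.1 and 41.2% lower). Higher in 92.1 were HSPH1 (log2 1.94 ± 0.0805), HSP90AA1 (1.81 ± 0.0704), HSF2 (1.5 ± 0.0578), HSPD1 (0.90 ± 0.0427), HSP90AB1 (0.62 ± 0.0583) and HSPB1 (0.16 ± 0.0575), the last of which turned to -0.054 with library size as the only scaling and to -0.014 among genes of at least 5 CPM, and did not pass without 92.1 DMSO library 2 (0.119, adjusted p = 0.07994). Those settings moved the median of all genes by -0.218 and -0.177. Lower in 92.1 were CRYAB (log2 -4.90 ± 0.124), HSF1 (-0.47 ± 0.0477) and BAG3 (-0.29 ± 0.102). HSPB8 passed the filter only through MP38, which fixed its call, and had 13 counts in all in untreated 92.1 against 2153 in untreated MP38. Most genes were called in this comparison, and the direction was mixed.

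The response itself differed between the lines in 5 of the 10 genes, CRYAB upwards in 92.1 relative to MP38 and HSPB1, HSF2, HSP90AA1 and HSPD1 downwards. Over all genes 40.9% were called for this difference, 22.1% higher and 18.8% lower, with a median of 0.113, against -0.0702 for the 10 genes. HSPB8, HSF1, HSPH1, HSP90AB1 and BAG3 did not pass, though HSF1 did with the 5 CPM filter (0.20, adjusted p = 0.01354). Of the 10 genes, 1 was higher and 6 were lower without DMSO library 3 of 92.1, where 49.1% of all genes were called.

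Related genes were counted from lists that in part overlap, such as CHORDC1 and STIP1 among both HSP90 cochaperones and HSF1 targets. The counts stand beside 52.3% of all genes called in MP38 (26.9% higher, 25.4% lower), 39.9% in 92.1 (20.3% higher, 19.6% lower) and 40.9% for the difference, and beside 69.8% and 50.4% of genes of at least 5 CPM in MP38 and in 92.1. In 92.1, 55.7% were called without DMSO library 3 (26.8% higher). Of 18 HSP90 cochaperones, 8 were called higher and 3 lower in MP38, and 1 higher and 7 lower in 92.1, with medians of 0.0424 and -0.15. The difference between lines was called lower for 8 and higher for 1 (10 and 1 without DMSO library 3 of 92.1). The 11 of 18 called in MP38 and the 8 of 18 in 92.1 lie near those shares, and without DMSO library 3 the count in 92.1 was 2 higher and 11 lower. FKBP5, the hormone-inducible immunophilin, was higher in MP38 (log2 0.50) and lower in 92.1 (-1.29). PTGES3, the p23 cochaperone that closes the HSP90 dimer, was higher in MP38 (0.33) and lower in 92.1 (-0.51), as was the phosphatase PPP5C (0.33 and -0.37). PPID, a cyclophilin, did not pass in MP38 (0.04) and was lower in 92.1 (-0.48). ST13, the HSP70-interacting Hip, was lower in MP38 (-0.36) and did not pass in 92.1 (0.11), where it did without DMSO library 3 (0.14, adjusted p = 0.0008426), with the 5 CPM filter (0.20, adjusted p = 0.03594) and under scaling by library size alone (0.18, adjusted p = 0.02778). Without DMSO library 3, FKBP5, PTGES3 and PPP5C in 92.1 were at -1.49, -0.59 and -0.42.

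The HSP60 partners and other mitochondrial quality control genes gave a like count. Of 11, 7 were higher and 1 lower in MP38, and none was higher and 7 lower in 92.1, with medians of 0.2 and -0.202. In 92.1, 9 were lower without DMSO library 3. The difference between lines was called lower for 8 of them, and for 10 without DMSO library 3. HSPA9, the matrix HSP70, was higher in MP38 (log2 0.28) and lower in 92.1 (-0.46). The matrix protease LONP1 was higher in MP38 (0.40) and lower in 92.1 (-0.47), a call lost in limma on log2(FPKM + 1) (adjusted p = 0.0960) and log2(FPKM + 0.1) (adjusted p = 0.08812). AFG3L2, a subunit of the inner membrane protease, was higher in MP38 (0.23) and lower in 92.1 (-0.30). HSPD1 itself and HSPE1 were lower in MP38, unlike these 3. The chaperonin of the cytosol, TRiC, had none of its 8 subunits called higher in either line and 5 called lower in each, in lines where 25.4% and 19.6% of all genes were called lower. All 8 were called lower in 92.1 without DMSO library 3. The difference between lines was called lower for 2 of the 8 subunits, and for 5 without that library. CCT4 was lower in both (-0.28 in MP38 and -0.24 in 92.1), and CCT5 only passed in 92.1 (-0.59, against 0.07 in MP38), with a difference of -0.63 (adjusted p = 4.269e-07).

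Both other HSP90 genes, HSP90B1 of the endoplasmic reticulum (log2 -0.60) and TRAP1 of mitochondria (-0.20), were lower in 92.1, and neither passed in MP38, where HSP90B1 was -0.002 with values on both sides of 0 across settings and TRAP1 was 0.06. Without MP38 DMSO library 3, HSP90B1 passed as lower there (-0.12, adjusted p = 0.0125). TRAP1 in 92.1 just missed the threshold with the 5 CPM filter (adjusted p = 0.0502). Of 7 other small heat shock protein genes, 5 were tested in each line, with 1 higher and none lower in MP38 and 2 higher and 1 lower in 92.1. The gene called higher in MP38 was HSPB7, best known from heart muscle, which there held 1, 4 and 0 counts in DMSO and 18, 24 and 10 in VE-822. It passed the filter only through VE-822, which fixed that call. HSPB7 rose in 92.1 from 34.0 ± 2.22 to 80.8 ± 3.37 CPM (SD, n = 3, log2 1.248, edgeR adjusted p = 1.872e-06). HSPB3 was higher in 92.1 at levels below 1 CPM, and HSPB11 lower (log2 -0.78). HSPB11 is known as a component of intraflagellar transport in cilia.

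Of 10 HSP110 relatives and nucleotide exchange factors, 4 were higher and 1 lower in MP38, and 1 higher and 4 lower in 92.1 (2 and 7 without DMSO library 3). HSPA4L, a close relative of HSPH1, was higher in 92.1 (log2 0.80) and did not pass in MP38 (0.19). Of 8 partners of BAG3 and selective autophagy, 3 were higher and 2 lower in MP38, and 4 higher and none lower in 92.1 (5 and 3 without DMSO library 3). The autophagy receptor SQSTM1 was higher in both lines (log2 0.62 and 0.41), and MAP1LC3B was higher in MP38 (1.00) and did not pass in 92.1 (0.15), where without DMSO library 3 it did (0.30, adjusted p = 9.965e-08).

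Of 18 heat-inducible targets of HSF1, 4 were higher and 10 lower in MP38, and 4 higher and 5 lower in 92.1 (6 and 11 without DMSO library 3), with medians of -0.131 and -0.148. HSPA6, the strictly inducible HSP70, was lower in MP38 (21.1 ± 1.46 to 6.26 ± 0.518 CPM, SD, n = 3) and higher in 92.1 (0.215 ± 0.0708 to 10.7 ± 4.26 CPM, SD, n = 3). HSPA1A was lower in MP38 (log2 -0.94) and higher in 92.1 (2.26), though its reads cannot be fully told from those of the near-identical HSPA1B, which was lower in MP38 (-1.02) and did not pass in 92.1 (0.67). There HSPA1B passed without DMSO library 3 (0.34, adjusted p = 0.03805) and with no filter (0.63, adjusted p = 0.0002186). HSPA8, the constitutive HSP70, was lower in MP38 (-1.17) and did not pass in 92.1 (-0.21). It was called lower there without DMSO library 3 (-0.34, adjusted p = 1.257e-08), in DESeq2 (-0.23, adjusted p = 0.04984) and with no filter (-0.24, adjusted p = 0.0009611). CHORDC1 and CACYBP were higher in MP38 (0.65 and 0.38), and CACYBP was lower in 92.1 (-0.63). CHORDC1 passed as lower in 92.1 in the same 3 settings as HSPA8 (-0.42, -0.29 and -0.30).

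**Figure D4:**
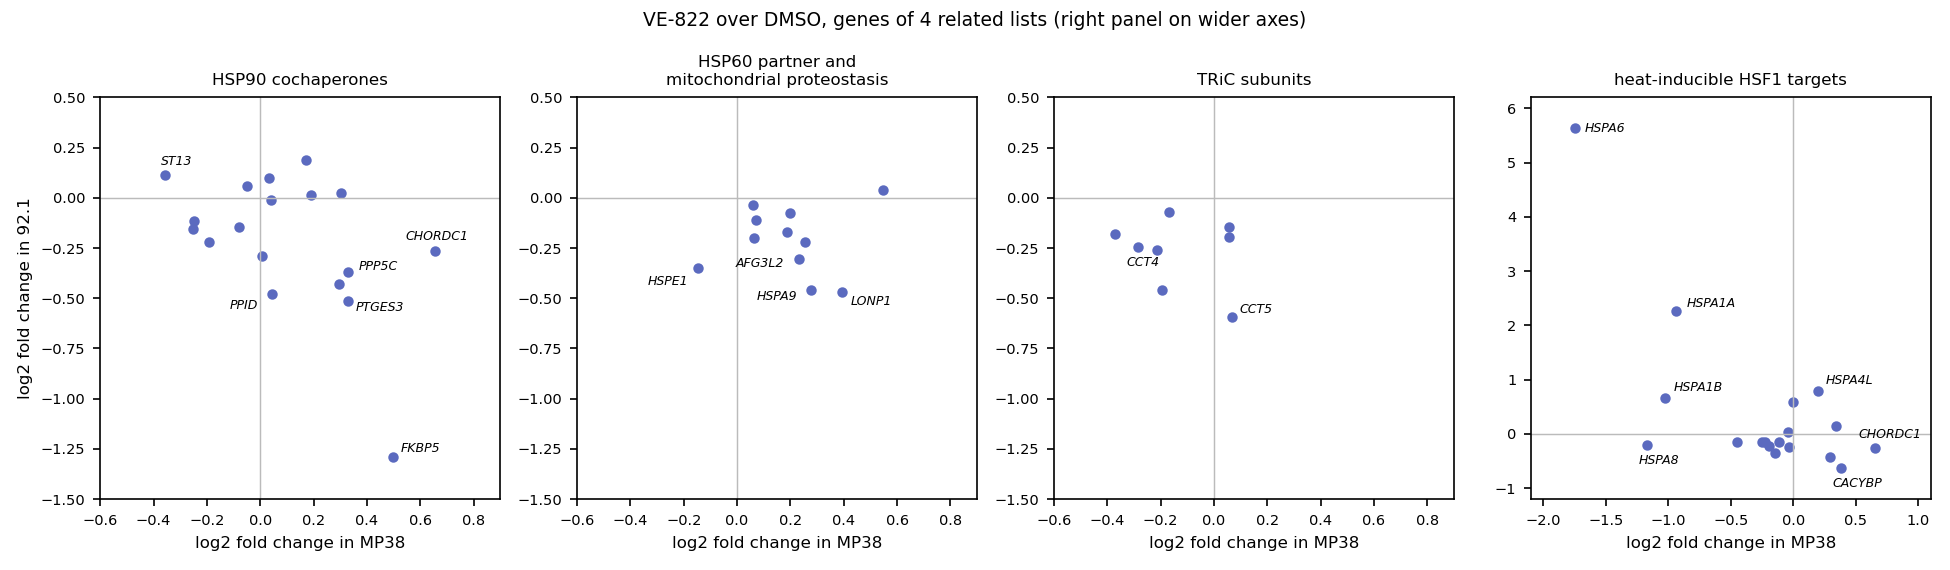
Log2 fold change in MP38 (horizontal axis) against 92.1 (vertical axis) of the genes of 4 related lists, 1 point per gene, with the right panel on wider axes. FKBP5, PTGES3, PPP5C, HSPA9 and LONP1 lie at values above 0 in MP38 and below 0 in 92.1, and HSPA6 and HSPA1A lie the other way.

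The genes whose levels ran most like CRYAB were sought by Pearson correlation of log2 CPM over the 12 libraries, each line centred on its own mean, among 10189 genes of at least 5 CPM in each line. They were SLC30A1 (r = 0.991), ZDHHC11 (0.991), DDB2 (0.991), CDKN1A (0.990) and TP53INP1 (0.990). CDKN1A, the p21 cell cycle inhibitor, rose by 2.09 in MP38 and 4.8 in 92.1 on the log2 scale. For HSPH1 the nearest were LRRC58 (0.987), TTLL12 (0.985), HDAC3 (0.985), DGCR8 (0.985) and HES6 (0.985), all at values below 0 in both lines. These points share treatment and libraries, so a high r describes 2 groups set apart in each line.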

How the data were processed

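Poly(A) RNA was sequenced from 12 libraries, 3 per line and treatment. Per the submitters' processing notes, STAR 2.7.11a, featureCounts 2.0.6, cutadapt 4.8, MultiQC 1.7 and FastQC 0.12.1 were used with GRCh38.p13, without stated roles or settings. The authors deposited raw counts per gene for each line and FPKM, which hold the same counts scaled by feature length and library total. The strand setting and the annotation release are not given in the sources used here.

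Counts were tested in R 4.3.3 with edgeR 4.0.16 (filterByExpr with a minimum count of 10 and a minimum total of 15, TMM factors, quasi-likelihood F test) in each line, and jointly over the features of both tables for the difference in response (92.1 minus MP38) and for the untreated lines. Benjamini-Hochberg adjustment covered every gene in a fit, and SEs were taken from the F statistic. CPM use the filtered library sizes with TMM factors within a line. The HSP90 ratio was compared by a two-sided exact permutation test. Alternatives used RLE factors, library size alone, no filter, a filter at 5 CPM, DESeq2 1.42.0, a robust fit, a replicate block, limma 3.58.1 on log2(FPKM + 1) and log2(FPKM + 0.1), and each library left out. The scripts were tested on simulated data. Of simulated 1.25-fold changes in genes of at least 1 CPM, 75% were recovered in MP38, 17.6% in 92.1 and 14.7% for the difference. False calls made up 6.21%, 6.42% and 8.05% of calls. A small change that did not pass in 92.1 or for the difference may thus have been missed. Intervals and limits on counts cover counting error only.

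The members, the 9 gene lists and the markers were chosen with earlier results of these data known. Named list genes were picked from the up to 4 called genes per list and line with the smallest adjusted p. Genes that share a promoter or near-identical copies with a member were added, and not every gene so selected is named. The genes most like CRYAB and HSPH1 were the 5 with the highest correlation, at an offset of 0.5 in log2 CPM.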

Additional observations from a re-analysis of the deposited data

Results flagged for a closer look

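The response to VE-822 differed between 92.1 and MP38, by the interaction term of edgeR's joint fit of 12 libraries, in 5 of the 10 chaperone genes. The log2 response in 92.1 minus that in MP38 was 1.455 for CRYAB (adjusted p = 1.619e-06), -0.3985 for HSPB1 (0.0009567), -0.4847 for HSF2 (0.0001621), -0.6148 for HSP90AA1 (9.466e-05) and -0.4093 for HSPD1 (4.843e-05). Each of the 5 held without DMSO library 3 of 92.1, at 1.228, -0.4966, -0.5676, -0.7622 and -0.484.

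Of the 75 tested genes in the related lists, the difference was past the threshold in 39 (10 higher and 29 lower in 92.1). Of these, 23 were among 27 genes picked from those the naming rule selects, and are given here. The other 16 include HSBP1L1 (-1.077). Of the HSP90 genes and cochaperones the difference was -0.5716 for HSP90B1, -0.2364 for TRAP1, -0.889 for CHORDC1, -1.752 for FKBP5, -0.8121 for PTGES3, -0.494 for PPID, -0.6696 for PPP5C and 0.4997 for ST13. In the list of other small heat shock protein genes it was -2.172 for HSPB7 and -0.6763 for HSPB11, which is known from intraflagellar transport. Of the factors' relatives it was -0.5324 for HSBP1 and 0.2468 for HSF4. Mitochondrial genes gave -0.8343 for LONP1, -0.5059 for AFG3L2 and -0.707 for HSPA9, and TRiC gave -0.6317 for CCT5. HSP70 and target genes gave 0.6313 for HSPA4L, 0.9864 for HSPA8, 7.419 for HSPA6, 3.231 for HSPA1A, 1.72 for HSPA1B and -0.9821 for CACYBP, and the autophagy gene MAP1LC3B gave -0.8222. Of all genes, 40.9% were called for this difference, and that for TRAP1 was lost with the 5 CPM filter (-0.1156, adjusted p = 0.07543). For HSPB7 it rests on MP38 counts of 0 to 4 in DMSO and ranged from -3.806 to -1.653 with single libraries left out, the former without MP38 DMSO library 2. Without DMSO library 3 of 92.1, the difference also passed in edgeR's joint fit for HSPE1 (-0.2809, adjusted p = 0.0005353) and SQSTM1 (-0.228, adjusted p = 0.01389). In that fit 49.1% of all genes were called. The count over the 75 list genes was not repeated without that library.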

How the results depend on the processing

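Counts of called genes ranged from 10112 to 10755 in MP38, 6742 to 13276 in 92.1, 9259 to 11912 for the difference and 19170 to 20675 between untreated lines when single libraries were left out (main fits 11194, 9156, 10214 and 19904). The 13276 came without DMSO library 3 of 92.1. There 2 of the 10 genes were called higher (1 to 2 over the libraries left out) and 7 lower. HSPB8 then entered the test through VE-822 alone, which fixed its call. Among genes of at least 5 CPM, 5717 were called in 92.1 and 10302 between untreated lines, because fewer genes were tested; 2 of the 10 genes were then higher in 92.1 and 2 higher in the difference. In limma on FPKM, with either pseudocount, 3 of the 10 were lower in 92.1. With library size alone, 92.1 split into 5684 higher and 3534 lower (main 4658 and 4498), in limma on FPKM into 4707 and 2757 or 4763 and 2776, and the median difference moved by 0.122 among genes of at least 5 CPM. On leaving out libraries, the log2 change of the HSP90AA1 to HSP90AB1 ratio ranged from 0.3418 to 0.3989 in MP38 and from -0.2356 to -0.2018 in 92.1.

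Some values changed sign, and the cause was not tested. In MP38, HSP90B1 was 0.0004829 with RLE factors, 0.0004633 in DESeq2 and 0.008462 with the replicate block, and ranged from -0.1201 to 0.07431 with single libraries left out. In 92.1, BAG3 was 0.06736 with library size alone, 0.09245 at 5 CPM, 0.01815 with the replicate block, 0.08328 and 0.08832 in limma, and ranged from -0.1929 to 0.07909 with libraries left out. HSF1 in 92.1 was 0.03828, 0.0603, 0.03638 and 0.03775 with library size alone, at 5 CPM and in limma. In those settings the log2 values of all genes shared with the main fit of 92.1 moved by medians of 0.0696, 0.0917, 0.0566 and 0.0693. For the difference, HSP90AB1 was 0.04455 with library size alone and 0.09046 at 5 CPM, and BAG3 was 0.01705 at 5 CPM. With libraries left out, the difference ranged from -0.162 to 0.01594 for HSP90AB1, from -0.1348 to 1.805 for HSPB8, from -0.0327 to 0.1957 for HSPH1 and from -0.00392 to 0.08767 for CCT4. HSPB1 between untreated lines, which passed at 0.164, was -0.05448 with library size alone and -0.01423 at 5 CPM.

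Replicate numbers were used as a block only as an alternative, since not every same-numbered pair correlated above 0.1 (r -0.0674 to -0.0107 in MP38, 0.0758 to 0.109 in 92.1, where each library correlated best with its own number). The replicate block gave 10666, 8762 and 9881 calls in MP38, 92.1 and the difference, and no call among the 10 genes was lost or gained with it.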
